A study of Homo sapiens with 6 samples.

Results

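The 10 genes described here encode kinases and mediators of the DNA damage checkpoint. They are ATM, ATR, ATRIP, CHEK1, CHEK2, WEE1, CDC25A, TP53BP1, MDC1 and TOPBP1, chosen by gene symbol for their place in the pathway, with earlier results of these data known, and each is 1 row of the 35474 genes in the deposited count table. The libraries came from A549, an established human lung adenocarcinoma cell line, collected 48 h after transfection. Cultures of the siBAP18 group (3 libraries) received siRNA against BAP18, a chromatin-associated protein that reads histone H3K4me3, and cultures of the siCtrl group (3 libraries) received a nontargeting siRNA. Poly(A) RNA was sequenced, and the comparison asks how BAP18 knockdown changed the transcripts of the genome. Which of the study's BAP18 siRNAs was used for these cultures is not given in the sources used here.

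ATM and ATR stand at the top of the checkpoint. ATM responds mainly to double-strand breaks, and ATR, carried by its partner ATRIP, responds to single-stranded DNA at stalled forks after activation by TOPBP1. They phosphorylate the effector kinases CHK2 (from CHEK2) and CHK1 (from CHEK1), with TP53BP1 and MDC1 acting as mediators on the chromatin around breaks. The output falls on the cyclin-dependent kinases, which WEE1 holds inactive by phosphorylation and CDC25A activates by removing that phosphate. Transcript levels say nothing of the phosphorylation by which most of this pathway is controlled.

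BAP18 itself is listed as C17orf49, and its counts of 743, 751 and 705 in siCtrl compare with 120, 137 and 108 in siBAP18. Library totals ranged from 42094524 to 56548620 counts. Mitochondrial genes took 6.86% to 7.43% of the counts in siCtrl and 5.27% to 6.14% in siBAP18, without overlap. The siBAP18 libraries differed more among themselves than the siCtrl libraries did, where chi-square over its degrees of freedom was 10.97 to 25.8 between pairs, against 4.17 to 4.87. Of the markers that define the line, all 5 epithelial markers (KRT8 at a mean of 1948 RPKM in siCtrl) and all 6 genes typical of A549 (ALDH1A1 at 3251 RPKM) were detected. Summed over the list, the epithelial markers ranged from 3830 to 4057 RPKM in siCtrl and from 2972 to 3438 in siBAP18, and the A549 genes from 6196 to 6285 and from 3532 to 3821. The epithelial sum leans on its most abundant genes. Taken singly, the 5 epithelial markers had log2 fold changes, siBAP18 over siCtrl, from −1.32 to 0.15. RPKM is the count divided by gene length and by the library total. The fibroblast markers summed to 1.26 to 1.41 RPKM in siCtrl and 0.920 to 1.16 in siBAP18, and the endothelial markers to at most 0.183 RPKM in any library. Of the leukocyte markers, LYZ had at most 16 counts in a library, and CD68, a lysosomal protein that many cell types express, had 28.7 to 31.1 RPKM in siCtrl and 54.2 to 69.7 RPKM in siBAP18. The part of the mitochondrial share and of these marker differences in the results was not tested.

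Of the 10 checkpoint genes, 6 fell and 1 rose after BAP18 knockdown at an adjusted p under 0.05. TOPBP1, ATR, ATM, ATRIP, CHEK1 and TP53BP1 fell, WEE1 rose, and CHEK2, CDC25A and MDC1 did not pass the test. Among all 20776 genes tested, 49.6% passed in either direction, 25.1% as lower and 24.5% as higher, so that the share of checkpoint genes that fell (6 of 10) stands beside a background of about 1 gene in 4. Adding the study's second threshold, an absolute log2 fold change over 1, left TOPBP1, on the lower side, where the background was 3.74%. WEE1 stayed under that fold, and 4.72% of all genes passed it upward. In 7 of the 10 genes the ranges of both groups were apart, as in 56.6% of all genes tested. The median log2 fold change of the 10 genes was −0.31, against 0.0010 over all genes tested. All 10 passed the filter on low counts, with 204 to 4986 counts in a library. p-values set the difference between the groups against the spread between the libraries of a group, which the labels call biological replicates. In edgeR's fit the spread of each gene was drawn toward that of other genes of like abundance. The edgeR p-values therefore do not rest on the spread of that gene's 6 libraries alone.

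**Figure D1:**
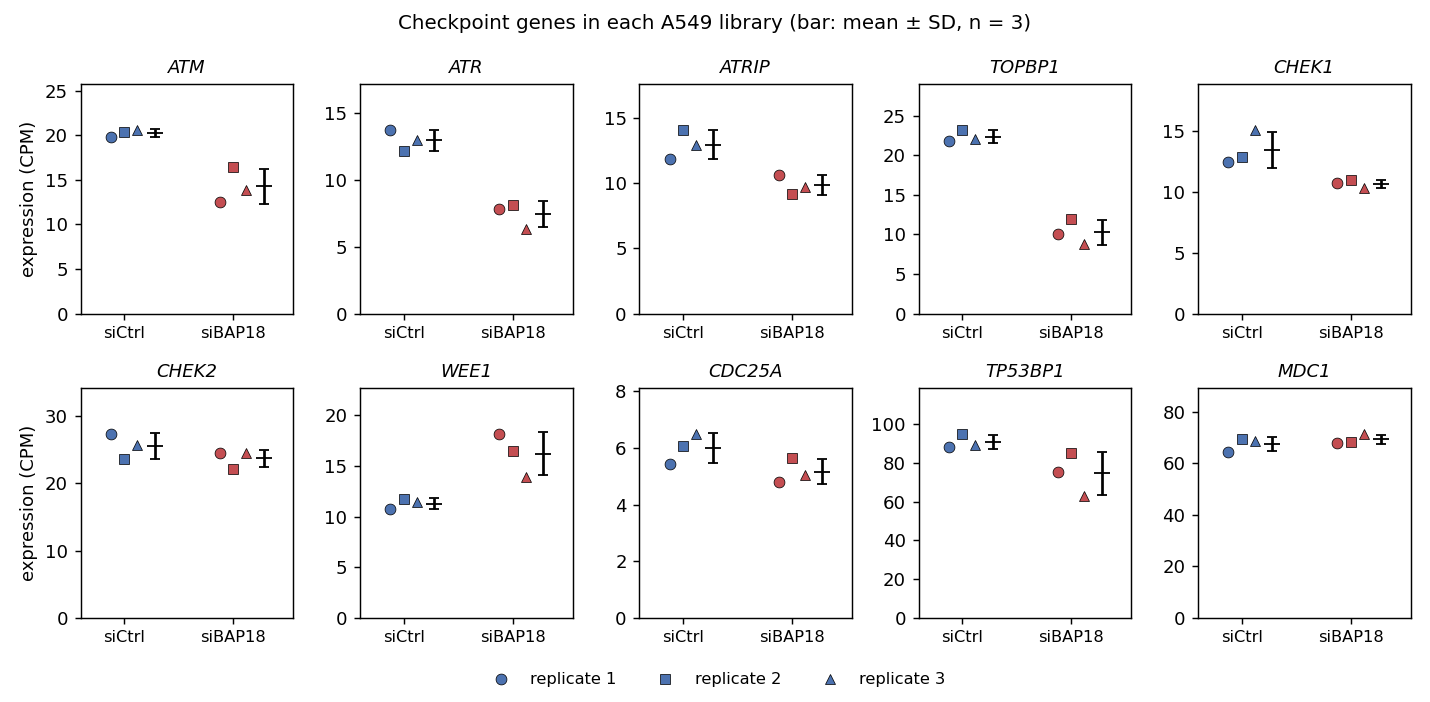
Expression of the 10 checkpoint genes in CPM (TMM-scaled) in each of the 6 libraries, with the siCtrl libraries in blue, the siBAP18 libraries in red and the mean ± SD (n = 3) as a bar at the right of each group. TOPBP1 lies at 21.8 to 23.2 CPM in siCtrl and at 8.83 to 11.9 CPM in siBAP18, and WEE1 is the gene whose siBAP18 libraries all lie above siCtrl.

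TOPBP1 encodes the scaffold protein that switches on ATR at stalled forks, and it changed most of the 10 genes. It lies on chromosome 3 from 133598175 to 133661893 on the minus strand (GRCh38). Expression was 21.8, 23.2 and 22.0 CPM in the siCtrl libraries (replicates 1 to 3 in order) and 10.1, 11.9 and 8.83 CPM in siBAP18. CPM is the count scaled to the TMM-adjusted library total, without correction for gene length. The groups lay far apart, with the lowest siCtrl library well above the highest siBAP18 library. TOPBP1 fell by 53.8%, or −1.12 ± 0.0922 (log2 fold change ± standard error, adjusted p = 2.59e-10 in edgeR's quasi-likelihood test). It stayed past −1 in each fit that left out 1 library (log2 fold change from −1.24 to −1.02). With limma on log2(RPKM + 1), a scale that shrinks changes of genes at low levels, it was −0.78.

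The promoter of TOPBP1 is shown because it belongs to the gene that changed most, together with that of CDC25A, which holds the same kind of element, and that of ATR, the gene with the next largest fall. Each runs from 250 bases before to 50 bases after the annotated start, and is taken from RefSeq (GRCh38.p14) as chr3:133661892-133662191, chr3:48188368-48188667 and chr3:142578684-142578983, all on the minus strand. Capitals mark the words searched on both strands, which were the E2F words TTTCCCGC, TTTCGCGC, TTTGCCGC and TTTGGCGC, the word CCAAT bound by NF-Y, and the cell cycle homology region words TTTGAA and TTCGAA.
TOPBP1: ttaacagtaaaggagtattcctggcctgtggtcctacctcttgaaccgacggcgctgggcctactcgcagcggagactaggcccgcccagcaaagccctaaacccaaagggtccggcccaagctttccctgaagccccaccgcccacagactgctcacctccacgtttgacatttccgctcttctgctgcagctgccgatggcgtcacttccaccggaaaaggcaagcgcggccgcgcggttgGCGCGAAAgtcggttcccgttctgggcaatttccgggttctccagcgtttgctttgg
CDC25A: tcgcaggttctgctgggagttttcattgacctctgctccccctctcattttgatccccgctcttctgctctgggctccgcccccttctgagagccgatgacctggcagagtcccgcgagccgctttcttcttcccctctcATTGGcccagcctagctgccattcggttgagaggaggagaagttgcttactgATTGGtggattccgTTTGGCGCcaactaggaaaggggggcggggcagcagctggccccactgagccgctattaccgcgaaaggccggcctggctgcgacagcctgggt
ATR: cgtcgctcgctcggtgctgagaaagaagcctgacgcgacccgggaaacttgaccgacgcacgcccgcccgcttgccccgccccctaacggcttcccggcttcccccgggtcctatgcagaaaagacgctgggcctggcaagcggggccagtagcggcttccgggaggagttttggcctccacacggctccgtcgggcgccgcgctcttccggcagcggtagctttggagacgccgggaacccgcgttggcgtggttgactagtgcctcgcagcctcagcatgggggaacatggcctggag

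E2F factors switch on genes at the entry into S phase. An E2F word was found in the promoters of 2 of the 9 checkpoint genes matched in the RefSeq table, TOPBP1 and CDC25A, and in 3.31% of 35116 promoters of the same length. In TOPBP1 it reads GCGCGAAA, the reverse complement of TTTCGCGC, from position −7 relative to the start, and in CDC25A it is TTTGGCGC from position −44. CCAAT was found in 7 of the 9 genes (ATM, ATRIP, CHEK1, CHEK2, CDC25A, TP53BP1 and MDC1) and in 34.6% of all promoters. A cell cycle homology region word was found in ATM and MDC1 and in 16.4% of all promoters. ATR held none of the words. The genes with an E2F word thus include both the gene that changed most and one that did not pass the test, and no word was shared by all the genes that fell. ATM, ATRIP and CHEK1 are listed with more than 1 promoter, and a word in any of them was counted. The background shares count each promoter singly, so they are not directly comparable with these counts of genes. WEE1 was not matched.

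ATR encodes the kinase that guards replication forks and is located on chromosome 3 from 142449235 to 142578826 on the minus strand. Its expression was 13.8, 12.2 and 13.0 CPM in siCtrl and 7.85, 8.13 and 6.32 CPM in siBAP18. No siBAP18 library reached the lowest siCtrl library. ATR fell by 42.5%, or −0.80 ± 0.1005 (log2 fold change ± standard error, edgeR adjusted p = 3.16e-07). Of its exon length, 16.4% is shared with RP11-383G6.4 on the opposite strand, which had at most 46 counts in a library. RP11-383G6.4 fell too (log2 fold change −0.99, adjusted p = 0.0092 in edgeR's test). The part of reads in the shared exons was not tested.

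ATRIP, the obligate partner that brings ATR to single-stranded DNA, lies on chromosome 3 from 48446710 to 48467645 on the plus strand. Expression was 11.9, 14.1 and 12.9 CPM in siCtrl and 10.6, 9.16 and 9.74 CPM in siBAP18, so that the groups were separated but by a narrow gap. ATRIP fell by 24.0%, or −0.40 ± 0.0934 (log2 fold change ± standard error, edgeR adjusted p = 9.80e-04). The exonuclease gene TREX1 lies within it on the same strand and covers 33.8% of its exon length. TREX1 fell too (log2 fold change −0.87, adjusted p = 6.46e-07 in the same test). How reads in the shared exons were assigned is not given in the sources used here, and their part in the change of ATRIP was not tested.

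ATM, the kinase of the response to double-strand breaks, lies on chromosome 11 from 108222484 to 108369102 on the plus strand. It had 19.8, 20.4 and 20.6 CPM in siCtrl and 12.5, 16.4 and 13.8 CPM in siBAP18. The siCtrl libraries were nearly alike, with a coefficient of variation of 2.14%, while the siBAP18 libraries varied by 13.9% and all lay lower. ATM fell by 29.5%, or −0.50 ± 0.0889 (log2 fold change ± standard error, edgeR adjusted p = 3.74e-05). NPAT, a regulator of histone genes that starts beside ATM in the opposite direction and shares 143 exon bases with it, had 168, 122 and 130 counts in siCtrl and 74, 64 and 54 in siBAP18 (log2 fold change −1.18, adjusted p = 4.06e-06 in the same test).

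A siRNA can also lower transcripts whose 3′ UTR matches bases 2 to 8 of its guide, so these words were searched in GENCODE 29. ATM was the only one of the 10 genes with the word of siBAP18#3 (ACTCAAC), which 7.85% of 13639 tested genes hold. ATR, which fell, and WEE1, which rose, each hold 1 word of siBAP18#2 (AAGATTC, 12.6% of genes). TOPBP1, ATRIP, CHEK1, CHEK2, CDC25A, TP53BP1 and MDC1 hold no word of any of the 3 BAP18 siRNAs. The part of these words in the changes of ATM, ATR and WEE1 was not tested.

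CHEK1 encodes the effector kinase of the ATR branch and is located on chromosome 11 from 125625136 to 125676255 on the plus strand. Expression was 12.4, 12.9 and 15.1 CPM in siCtrl and 10.7, 11.03 and 10.4 CPM in siBAP18. The groups did not overlap, although siCtrl replicate 3 stood above the other siCtrl libraries. CHEK1 fell by 20.5%, or −0.33 ± 0.0913 (log2 fold change ± standard error, edgeR adjusted p = 0.00385). Without siCtrl replicate 3 the log2 fold change was −0.24 and the adjusted p 0.0606 in the same edgeR test, so that the call rests on this library. CHEK1 shares 80 exon bases on the same strand with STT3A, which had 3747 to 5306 counts in a library, against 420 to 708 for CHEK1, and did not pass the test (log2 fold change −0.12, adjusted p = 0.124 in edgeR's test). The part of reads in the shared bases was not tested.

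CHEK2 encodes the effector kinase of the ATM branch and is located on chromosome 22 from 28687743 to 28742422 on the minus strand. It had 27.4, 23.6 and 25.7 CPM in siCtrl and 24.5, 22.2 and 24.4 CPM in siBAP18, and the groups overlapped. Its log2 fold change was −0.11 (95% confidence interval −0.27 to 0.05, adjusted p = 0.246 in the same test). HSCB, on the opposite strand, covers 7.27% of the exon length of CHEK2 and did not pass the test either (log2 fold change 0.11, adjusted p = 0.453 in edgeR's test). CHEK2 is uncertain in another way, since GENCODE 29 lists 4 pseudogene copies of it. The 2 of them in the count table had at most 2 counts in a library, and how reads shared with the copies were counted is not given in the sources used here.

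WEE1, the kinase that restrains cyclin-dependent kinases before mitosis, was the only one of the 10 genes that rose. It lies on chromosome 11 from 9573681 to 9593457 on the plus strand. Expression was 10.7, 11.7 and 11.4 CPM in siCtrl and 18.2, 16.5 and 13.9 CPM in siBAP18. All siBAP18 libraries were higher, replicate 3 least so. WEE1 rose by 44.0%, or 0.53 ± 0.0934 (log2 fold change ± standard error, edgeR adjusted p = 4.17e-05).

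CDC25A encodes the phosphatase that opposes WEE1 and is destroyed when CHK1 or CHK2 phosphorylates it. It lies on chromosome 3 from 48157146 to 48188402 on the minus strand and had the fewest counts of the 10 genes. Expression was 5.43, 6.08 and 6.50 CPM in siCtrl and 4.81, 5.65 and 5.03 CPM in siBAP18, with overlap between the groups. The log2 fold change was −0.21 (95% confidence interval −0.45 to 0.03, adjusted p = 0.134 in the same test). A fall as large as that of ATRIP or CHEK1 lies within this interval, so that it could not be told from no change at this depth.

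TP53BP1 encodes 53BP1, which gathers on chromatin at breaks and favors end joining, and is located on chromosome 15 from 43403061 to 43510728 on the minus strand. It was the most abundant of the 10 genes in CPM, at 88.0, 95.03 and 89.3 in siCtrl and 75.5, 85.4 and 62.9 in siBAP18. The groups were separated, but siBAP18 replicate 2 came close to siCtrl replicate 1. TP53BP1 fell by 17.7%, or −0.28 ± 0.0828 (log2 fold change ± standard error, edgeR adjusted p = 0.0063). Without siBAP18 replicate 3 the log2 fold change was −0.17 (adjusted p = 0.0174 in the same test), and limma on log2(RPKM + 1) did not call it (adjusted p = 0.0971). The gene TUBGCP4, on the opposite strand, covers 28.7% of the exon length of TP53BP1 and fell by a like amount (log2 fold change −0.29, adjusted p = 0.0115 in edgeR's test). The libraries were made to keep strand, but whether the counting used it is not given in the sources used here.

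MDC1, the mediator that binds phosphorylated histone H2AX, lies on chromosome 6 from 30699807 to 30717889 on the minus strand. Expression was 64.4, 69.2 and 68.5 CPM in siCtrl and 67.9, 68.2 and 71.3 CPM in siBAP18. The ranges overlapped between 67.9 and 69.2 CPM, with siCtrl replicate 1 below and siBAP18 replicate 3 above the libraries of the other group. The log2 fold change was 0.04 (95% confidence interval −0.10 to 0.17, adjusted p = 0.667 in the same test), so that a fall as large as that of TP53BP1 lies outside the interval. MDC1-AS1, on the opposite strand, covers 8.69% of the exon length of MDC1 and did not pass the test (log2 fold change 0.08, adjusted p = 0.407 in edgeR's test).

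**Figure D2:**
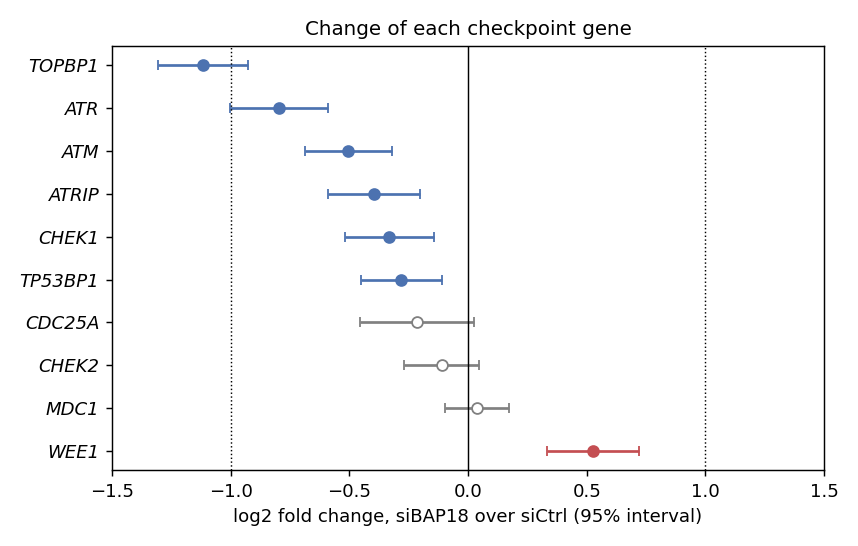
Log2 fold change of each checkpoint gene, siBAP18 over siCtrl, with its 95% confidence interval from edgeR's fit of 3 against 3 libraries; blue and red points passed an adjusted p under 0.05 as lower and higher, open grey points did not, and dotted lines mark −1 and 1. The values run from −1.12 for TOPBP1 to 0.53 for WEE1, and the intervals of CDC25A, CHEK2 and MDC1 cross 0.

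Levels can be compared between genes only per length, so RPKM was used for the order of the 10 genes within a group. In siCtrl the order by mean RPKM was MDC1 (8.34 ± 0.390, SD, n = 3), TP53BP1 (6.98), CHEK2 (6.15), TOPBP1 (3.43), ATRIP (2.38), CHEK1 (2.05), CDC25A (1.46), WEE1 (1.22), ATR (1.04) and ATM (0.906 ± 0.0241, SD, n = 3). Of these neighbors, only ATRIP and CHEK1 overlapped between libraries. By this measure the apical kinases ATM and ATR had the lowest transcript levels of the 10 genes, and the chromatin mediators MDC1 and TP53BP1 the highest. The order depends on the deposited gene lengths, which are 22317 bases for ATM and 12496 for ATR against 4117 for CDC25A. Without length, ATM had a mean of 20.3 CPM in siCtrl and CDC25A 6.01 CPM. In siBAP18, TOPBP1 stood 7th in place of 4th, at 1.58 ± 0.291 RPKM (SD, n = 3), and WEE1 stood 5th in place of 8th, at 1.76 ± 0.275 RPKM (SD, n = 3). There the libraries of ATRIP, WEE1, CHEK1, TOPBP1 and CDC25A, from 1.81 down to 1.26 RPKM in the mean, overlapped from each gene to the next, as did those of TP53BP1 and CHEK2 and those of ATM and ATR.

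Ratios of 2 genes within a library do not depend on how libraries are scaled, and 5 were formed from partners and opponents in the pathway. The ratio of CDC25A to WEE1, activator to inhibitor of the cyclin-dependent kinases, was 1.14, 1.17 and 1.28 in siCtrl and 0.594, 0.769 and 0.810 in siBAP18, on the RPKM scale. On this scale CDC25A exceeded WEE1 in every siCtrl library and stood below it in every siBAP18 library. Which gene is higher depends on the deposited lengths, 4117 bases for CDC25A and 9239 for WEE1. In CPM, without length, WEE1 was higher in both groups, at means of 11.3 against 6.01 in siCtrl and 16.2 against 5.17 in siBAP18. The log2 ratio differed by −0.73 (exact permutation test, two-sided, p = 0.1, 0.2 adjusted over the 5 ratios). With 3 against 3 libraries, 0.1 is the smallest p this test can give. The ratio of TP53BP1 to MDC1 was 0.849, 0.852 and 0.809 in siCtrl and 0.691, 0.777 and 0.548 in siBAP18, also without overlap (log2 difference −0.33, exact permutation p = 0.1, 0.2 adjusted). Without siBAP18 replicate 3 this log2 difference was −0.19.

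In the other ratios the groups overlapped. ATRIP to ATR averaged 2.31 ± 0.340 in siCtrl and 3.09 ± 0.480 in siBAP18 (SD, n = 3, exact permutation p = 0.2), a log2 difference of 0.42. ATR to ATM averaged 1.15 ± 0.0889 and 0.940 ± 0.158 (SD, n = 3, exact permutation p = 0.2), and CHEK1 to CHEK2 averaged 0.335 ± 0.0433 and 0.286 ± 0.0247 (SD, n = 3, exact permutation p = 0.2). For ATR to ATM the log2 difference was −0.30, and it was −0.43 without siBAP18 replicate 1 and −0.20 without siBAP18 replicate 3. For CHEK1 to CHEK2 it was −0.22, and −0.14 without siCtrl replicate 3. A design of this size cannot pass the threshold with this test, so these p-values do not show that the partners changed alike.

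**Figure D3:**
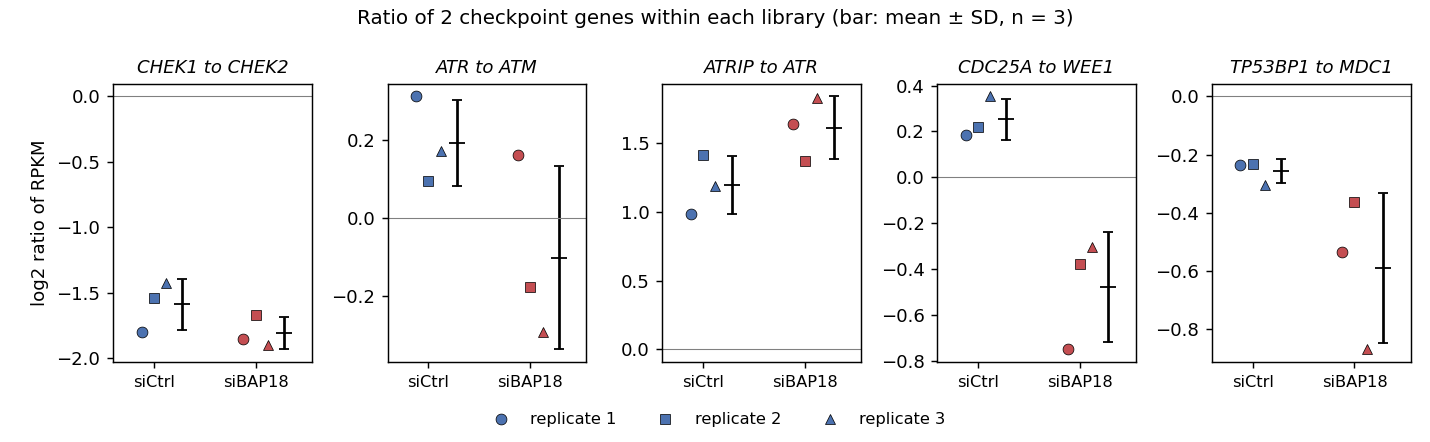
Log2 ratio of the RPKM of 2 checkpoint genes within each library, with siCtrl in blue, siBAP18 in red, 1 symbol per library, and the mean ± SD (n = 3) as a bar. The ratios of CDC25A to WEE1 and of TP53BP1 to MDC1 are lower in all 3 siBAP18 libraries than in any siCtrl library, while the groups overlap in the others.

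The spread among the knockdown libraries differed between genes. Among the siBAP18 libraries, replicate 2 was the highest in 6 of the 10 genes and replicate 3 the lowest in 5. The coefficient of variation was 13.2% to 15.1% for ATR, ATM, WEE1, TP53BP1 and TOPBP1 in siBAP18, against 2.14% to 6.05% in siCtrl. In the other 5 genes it was smaller in siBAP18 than in siCtrl.

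Further genes of the pathway, in 6 lists, were read from the same fit. Of 47 genes, all tested, 26 fell, 9 rose and 12 did not pass the test (background 25.1% lower and 24.5% higher), with a median log2 fold change of −0.23. Of the 11 sensors, 7 fell and 1 rose (median −0.23). They included all 3 subunits of the MRN complex, which detects broken ends and activates ATM, with log2 fold changes of −0.78 for MRE11A, −0.72 for NBN and −0.57 for RAD50. Of the 10 other mediators, 6 fell and 1 rose (median −0.31). CLSPN, which encodes claspin and links ATR to CHK1, went from a mean of 25.3 to 6.22 CPM, BRCA1 from 22.1 to 7.41 CPM, and H2AFX, the histone that ATM marks at breaks, from 23.2 to 9.29 CPM. The fall of CLSPN (log2 fold change −2.03) was thus larger than that of any of the 10 checkpoint genes.

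Of the 8 other kinases and phosphatases, 4 fell and 2 rose (median −0.38). The background for this and the following lists was 25.1% lower and 24.5% higher. PKMYT1, which encodes MYT1 and phosphorylates CDK1 as WEE1 does, fell (log2 fold change −0.92), so that the related inhibitory kinases moved in opposite directions. DBF4, the activator of the replication kinase CDC7, fell (−0.79), and PPM1D, a phosphatase that reverses ATM and CHK2 signaling, rose from 7.99 to 20.8 CPM (1.38). All 6 CDK and cyclin genes fell (median −0.77), among them CDK1 from 32.5 to 13.7 CPM, CDK2 from 45.3 to 24.6 CPM and CCNE2 from 3.78 to 1.51 CPM. Of the 6 genes of the p53 arm, 4 rose and 1 fell (median 0.68). CDKN1A, the CDK inhibitor p21, went from 39.0 to 130.5 CPM, GADD45A from 35.0 to 107.7 CPM and MDM2, the ligase that degrades p53, from 42.2 to 89.9 CPM. Of the 6 turnover factors, 2 fell and 1 rose (median −0.13). USP28, a deubiquitinase that binds TP53BP1, fell (−0.53), CUL4A fell (−0.26), and FBXO6, a ligase subunit for CHK1, rose (0.53, adjusted p = 0.037 in edgeR's test, but lost without siCtrl replicate 2 or 3 or siBAP18 replicate 1 or 3, with adjusted p from 0.0947 to 0.193).

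Markers of proliferation were read from the same fit as well, with the same background of 25.1% lower and 24.5% higher. All 16 S-phase markers fell (median log2 fold change −0.96), and their summed level ranged from 377.4 to 382.1 RPKM in siCtrl and from 223.3 to 241.2 RPKM in siBAP18. Of 16 G2/M markers, 11 fell and 5 did not pass the test (median −0.54), with sums of 325.5 to 332.1 RPKM and 212.3 to 241.6 RPKM. MKI67, the gene of the proliferation marker Ki-67, had a log2 fold change of −1.20. The 10 checkpoint genes summed to 33.0 to 34.7 RPKM in siCtrl and 27.1 to 31.1 RPKM in siBAP18, a smaller relative difference than in either marker list. This sum leans on its most abundant genes, MDC1, TP53BP1 and CHEK2 (8.34, 6.98 and 6.15 RPKM in the siCtrl mean). Of these, MDC1 and CHEK2 did not pass the test. In bulk RNA, fewer cells in a phase and less RNA per cell cannot be told apart, and the part of the phase shares in the falls of TOPBP1, ATR, ATM, ATRIP, CHEK1 and TP53BP1 was not tested.

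**Figure D4:**
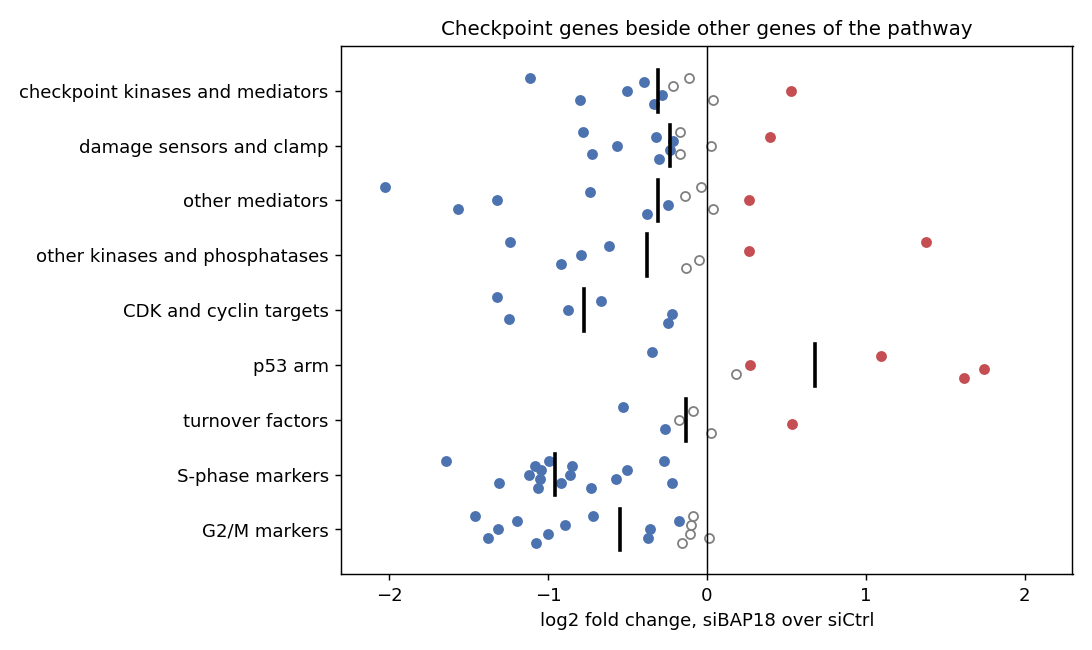
Log2 fold change, siBAP18 over siCtrl, of each gene of the 10 checkpoint kinases and mediators, of the 6 further pathway lists and of the S-phase and G2/M markers, with 1 point per gene and the list median as a black bar; blue and red points passed an adjusted p under 0.05 as lower and higher, and open points did not. The medians lie at −0.31 for the 10 checkpoint genes, −0.96 for the S-phase markers and 0.68 for the p53 arm.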

How the data were processed

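The authors deposited raw counts per gene for the 6 libraries and the same values as RPKM, made from poly(A), strand-specific, paired-end libraries. The RPKM values equal the count scaled to gene length and column total (largest absolute difference 4.7e-11). The submitters' processing notes name the builds hg38 and GRCm38, and the start and end of 9 of the 10 genes equal GENCODE 29 on GRCh38. The aligner, counting program and use of strand are not given in the sources used here. The 10 genes and all lists were chosen with earlier results of these data known.

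The test on counts was edgeR 4.0.16 under R 4.3.3 (filterByExpr, TMM, quasi-likelihood test on group, 20776 of 35474 genes). Benjamini-Hochberg adjustment ran over all genes tested, and standard errors are the log2 fold change over the root of F. Totals were 42094524 to 56548620 counts per library. A gene at 0 could hold up to 3 counts, and this floor covers counting error only. No pair of libraries was a copy. The steps were tested on simulated data for this comparison, where edgeR found 66 of 67 genes changed by 1 on the log2 scale and 52 of 66 changed by 0.5, with 15 other genes called (20471 genes run). Far fewer genes were changed in the simulation than passed in the data (49.6%). It therefore does not test the scaling where so many genes change.

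Besides the 10 genes, the text names C17orf49, MKI67, up to 3 genes with the smallest adjusted p in each of the 6 pathway lists, with genes overlapping the 10 and 4 marker genes (KRT8, ALDH1A1, LYZ and CD68) added after their values were seen. The lists were the sensors, other mediators, other kinases and phosphatases, CDK and cyclin genes, p53 arm, turnover factors, S-phase and G2/M markers, and epithelial, A549, leukocyte, fibroblast and endothelial markers. The planned protein features were not run, and 1 leukocyte marker is not reported here. Alternatives were DESeq2 1.42.0, edgeR's likelihood ratio test, 3 other scalings, 2 other filters, limma 3.58.1 on log2(RPKM + 1) and log2(RPKM + 0.1) at a mean RPKM of at least 0.5, limma with no filter, a replicate block, and each library left out. Python 3.11.15, numpy 2.4.6, pandas 2.3.3, scipy 1.17.1 and matplotlib 3.10.9 served for ratios, words and plots.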

Additional observations from a re-analysis of the deposited data

How the results depend on the processing

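Over 17 alternatives for each of the 10 checkpoint genes (170 fits of a gene), direction never turned, and 163 kept their side of the threshold. The 7 that lost it were falls or the rise of WEE1. Under limma without a filter on low values, on log2(RPKM + 1), 3 of the 10 genes were called lower and 0 higher, since ATM (adjusted p = 0.0704), CHEK1 (0.0922), TP53BP1 (0.211) and WEE1 (0.0521, unadjusted p = 0.0117) missed the threshold. In that limma fit 6 of the 10 genes had an unadjusted p under 0.05, 1 of them higher, and DESeq2 called 6 lower and 1 higher. TP53BP1 was also lost with limma on log2(RPKM + 1) and log2(RPKM + 0.1) after the filter (adjusted p = 0.0971 and 0.1), and CHEK1 without siCtrl replicate 3. Past the study's fold threshold, limma on log2(RPKM + 1) left 0 genes, with or without the filter, since TOPBP1 was at −0.78, while DESeq2 left 1. The pseudocount of 1 lowers the fold change of genes near 1 RPKM by construction. The median log2 fold change of the 10 genes was −0.21 with limma on log2(RPKM + 1), filtered or not, and −0.35 to −0.25 with each library left out. Of the other named genes, FBXO6 lost its call in 7 fits and CUL4A in 1.

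The replicate numbers did not pair the libraries (Pearson r of deviations from the group mean across genes −0.017, 0.051 and 0.0038 for numbers 1, 2 and 3), and only siCtrl replicate 2 correlated best with its own number. With a replicate block, 6 genes were lower, 1 was higher, 1 passed the study's thresholds and the median was −0.31; 10803 in place of 10305 of all genes passed, and 28 and 9 pathway genes were lower and higher. Pairing by number cannot move the mean log2 differences of the ratios, which are −0.22 (CHEK1 to CHEK2), −0.30 (ATR to ATM), 0.42 (ATRIP to ATR), −0.73 (CDC25A to WEE1) and −0.33 (TP53BP1 to MDC1). The exact sign-flip test over the pairs gave p = 0.5 for ATRIP to ATR and 0.25, the smallest it can give, for the others. At 204 to 330 counts in a library, CDC25A is the gene whose precision depth limits most.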
